A study of Mus musculus with 46 samples.

Results

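The samples described here were proximal tubular (PT) cells sorted from obstructed mouse kidneys and from sham-operated mouse kidneys, and gene expression was compared between them across 11416 genes. Members were chosen by the treatment and cell type labels. They were the 3 PT samples labelled Sham and the 4 PT samples labelled UUO that had a column of their own, which were 7 of the 44 columns used and of the 46 labelled samples. Both groups came from wild-type (WT) male C57BL/6 mice aged 8 to 12 weeks. In unilateral ureteral obstruction (UUO) the ureter of 1 kidney is tied, so that urine backs up into the tubules, and sham mice have the operation without the ligature. The sample labels do not state the day after UUO, whereas the series' design text names day 2 and day 7. Cells were sorted on Lotus tetragonolobus lectin (LTL), which binds the brush border of the proximal tubule, and the cDNA was amplified before sequencing (Ovation RNA-Seq System V2). Other sorts of the series hold macrophages, endothelial cells and stromal cells, and a further surgery group (rUUO, reversal of the obstruction) added only to the estimate of the spread. The LTL+ Sham 3 sample was not analysed here. UUO sample 2 carries both SHAM and UUO in its title and was grouped by its treatment label. The count over all genes is given without it, as are the larger moves in list counts. Smaller moves without it are not all given.

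PT cells reclaim most of what the glomerulus filters. Sodium-coupled carriers in the brush border take up glucose, amino acids and phosphate, the megalin and cubilin receptors take up filtered protein, and organic anion and cation carriers secrete drugs and metabolites. The work is paid for mainly by fatty acid oxidation in a dense population of mitochondria, and PT cells also make glucose, arginine and creatine precursors. Injured PT cells are known to lower these functions and to switch on genes such as Havcr1, which encodes kidney injury molecule-1 (KIM-1), a receptor for dying cells.

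Values were FPKM, which divide the fragments of a gene by its length and by the fragments mapped in that sample. Without counts, the depth of each sample is unknown. The 37 mitochondrial genes held 71.7 ± 3.45% of the FPKM sum in sham (SD, n = 3) and 64.0 ± 3.64% in UUO (SD, n = 4), with no overlap (exact two-sided permutation p = 0.0286, the smallest this design allows). The share of the mitochondrial ribosomal RNA genes was 57.3 ± 3.49% in sham and 54.1 ± 2.68% in UUO (exact permutation p = 0.314), and that of the other mitochondrial genes was 14.5 ± 0.374% and 9.88 ± 1.21% (exact permutation p = 0.0286). Between 9502 and 9816 genes reached 1 FPKM in sham and between 11282 and 12062 in UUO (exact permutation p = 0.0286). After division by the sum of the nuclear genes these counts were 12466 to 13284 and 13971 to 15094. The 100 most abundant nuclear protein-coding genes held 34.7 ± 0.598% of the nuclear protein-coding FPKM in sham and 26.8 ± 1.17% in UUO, so that the UUO samples were spread over more genes. Pearson's r between samples of a group, across genes, which are not independent replicates, was 0.91 to 0.956.

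**Figure D1:**
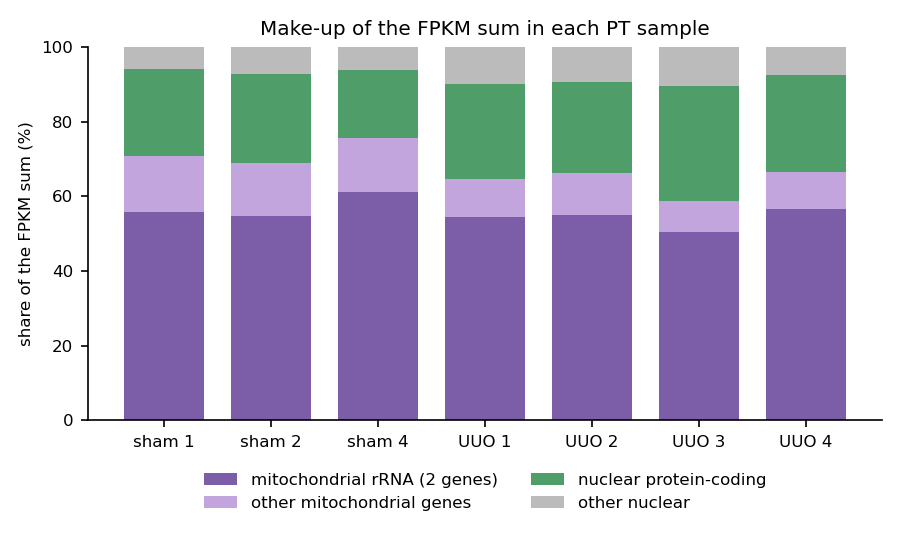
Share of the FPKM sum (y axis, %) held by 4 classes of genes in each PT sample (x axis), as stacked bars. Mitochondrial ribosomal RNA fills 50.4 to 61.3% of every bar, and the other mitochondrial genes fill 14.2 to 14.9% in the sham bars and 8.29 to 11.2% in the UUO bars.

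Because of this shift 3 scalings were used. They were the FPKM as deposited, the FPKM rescaled without the mitochondrial genes, and quantile normalization, which gives every sample the same distribution. Counts and changes are as deposited unless a scaling is named. The median log2 change of all genes, UUO minus sham, was 0.51 as deposited, 0.32 without the mitochondrial genes and -0.02 after quantile normalization. Log2 changes are differences of log2(FPKM + 1), which understate the change of low genes, and folds are ratios of mean FPKM. "Rose" and "fell" below mean an adjusted p under 0.05 in limma, and a change that held under all 3 scalings is said to do so.

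Of the 4 PT markers, Lrp2, Slc34a1 and Slc5a12 were abundant in sham and lower, though still present, in UUO. "PT cells" here means the cells of the LTL+ sort. Lrp2, the endocytic receptor megalin, had 229, 213 and 190 FPKM in sham samples 1, 2 and 4 and 55.01, 64.9, 100.5 and 131 FPKM in UUO samples 1 to 4. Slc34a1, the main sodium-phosphate cotransporter of the brush border, had 1610, 1617 and 1145 FPKM in sham and 314, 304, 359.5 and 363 FPKM in UUO. Slc5a12, a lactate transporter of the early tubule, had 172, 184 and 155 FPKM in sham and 25.1, 29.2, 47.1 and 58.5 FPKM in UUO. All 3 were lower in every UUO sample than in any sham sample. They fell under all 3 scalings, with log2 changes as deposited of -1.33 ± 0.25 (SE, adjusted p = 0.00132), -2.10 ± 0.17 (adjusted p = 6.1e-07) and -2.14 ± 0.27 (adjusted p = 4.51e-05). Havcr1 had 1.71, 1.39 and 0.41 FPKM in sham and 174, 194, 429 and 281 FPKM in UUO, with a log2 change of 6.92 ± 0.34 (adjusted p = 4.65e-09), the largest of the 11416 genes tested on this scale as deposited. By the ratio of means the rise of Lcn2 was larger, at 293.7 against 230.4, as was its log2 change without the mitochondrial genes, at 7.51 against 7.34. UUO sample 2, with its mixed title, stood with the other UUO samples for all 4 markers.

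Markers of the proximal tubule were then summed by segment. The summed FPKM of the S1 markers (Slc5a2, Slc5a12, Slc2a2, Gatm) was 816 to 999 in sham and 146 to 191 in UUO, and 4 of the 4 fell. The S2 markers (Slc22a6, Slc22a8, Slc13a3, Fbp1, Cyp2e1) summed to 727 to 888 in sham and 322 to 487 in UUO, and 4 of the 5 fell, Cyp2e1 at 235 ± 16.6 and 207 ± 48.8 FPKM being the exception. For the S3 markers the sums were 75.6 to 78.5 in sham and 61.4 to 140.3 in UUO, which overlapped. As deposited none of the 4 members tested fell and Slc5a1 rose, whereas Slco1a6 fell without the mitochondrial genes (log2 change -1.31) and after quantile normalization (-1.37), where Slc5a1 was not called. In these bulk sorts, fewer cells of a type and less RNA per cell cannot be told apart.

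Among markers of other tubule segments, those of intercalated cells rose as a set, and those of the rest rose in part or not at all. Over all genes tested 27.9% rose as deposited. The 5 markers of intercalated cells, the acid-base cells of the collecting duct, summed to 15.3 to 25.2 FPKM in sham and 522 to 699 in UUO, and 5 of the 5 rose under all 3 scalings. In every UUO sample that sum was above the sum of the S1 markers, which was 146 to 191 FPKM. The shares of cell types in the sorts were not measured. Foxi1, the transcription factor that specifies these cells, had 3.43, 1.89 and 1.51 FPKM in sham and 124, 111.3, 116 and 111.3 FPKM in UUO. Slc26a4, the bicarbonate exchanger pendrin, had 0.79, 0.38 and 1.22 FPKM in sham and 49.5 to 65.5 FPKM in UUO. Of the proton pump subunits, Atp6v1g3 rose from 5.50 ± 1.84 to 283 ± 68.4 FPKM and Atp6v0d2 from 2.60 ± 0.983 to 136 ± 19.3 FPKM. The fifth, Slc4a1, an anion exchanger that is also abundant in red blood cells, had 10.5 ± 3.59 and 31.5 ± 4.71 FPKM. Thick ascending limb markers summed to 25.1 to 29.1 FPKM in sham and 146 to 189 in UUO, most of it Umod (uromodulin) at 17.4 ± 2.21 and 147 ± 16.3 FPKM. Of the 5, Umod and Cldn16 rose under all 3 scalings, and Slc12a1 and Kcnj1 were not called. Egf went the other way, at 5.53 ± 2.13 and 2.85 ± 1.22 FPKM with overlapping groups, and was called lower after quantile normalization only. Markers of collecting duct principal cells summed to 16.9 to 22.2 and 39.8 to 97.4 FPKM (3 of the 5 tested rose as deposited), and those of the thin limb to 1.70 to 3.97 and 7.11 to 18.3 FPKM (2 of the 3 tested rose as deposited). The principal cell gene Fxyd4 was not called under either other scaling, nor the thin limb gene Fst after quantile normalization. Distal convoluted tubule markers overlapped, at 10.2 to 22.8 and 10.5 to 29.1 FPKM.

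Markers of non-tubular cells moved less. Macrophage and monocyte markers summed to 20.9 to 35.5 FPKM in sham and 18.1 to 49.8 in UUO, and endothelial markers to 8.43 to 14.98 and 11.8 to 25.8, with none of the 11 tested rising or falling. T cell, B cell and neutrophil markers summed to at most 2.91 FPKM in any sample, with Cd3e, Cd3g and Mpo listed at 0 in all 7. Podocyte markers summed to 2.46 to 7.29 and 6.90 to 18.1 FPKM (1 of the 3 tested rose), and red blood cell markers to 20.0 to 32.8 and 13.03 to 46.9 FPKM (none of the 5 was called). Stromal markers summed to 26.0 to 31.5 and 37.6 to 71.1 FPKM, and 2 of the 6 tested rose as deposited. The podocyte gene Synpo and the stromal gene Dcn were not called under either other scaling, whereas the stromal gene Rgs5 rose under all 3. The part of other segments in the rises described below was not tested.

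**Figure D2:**
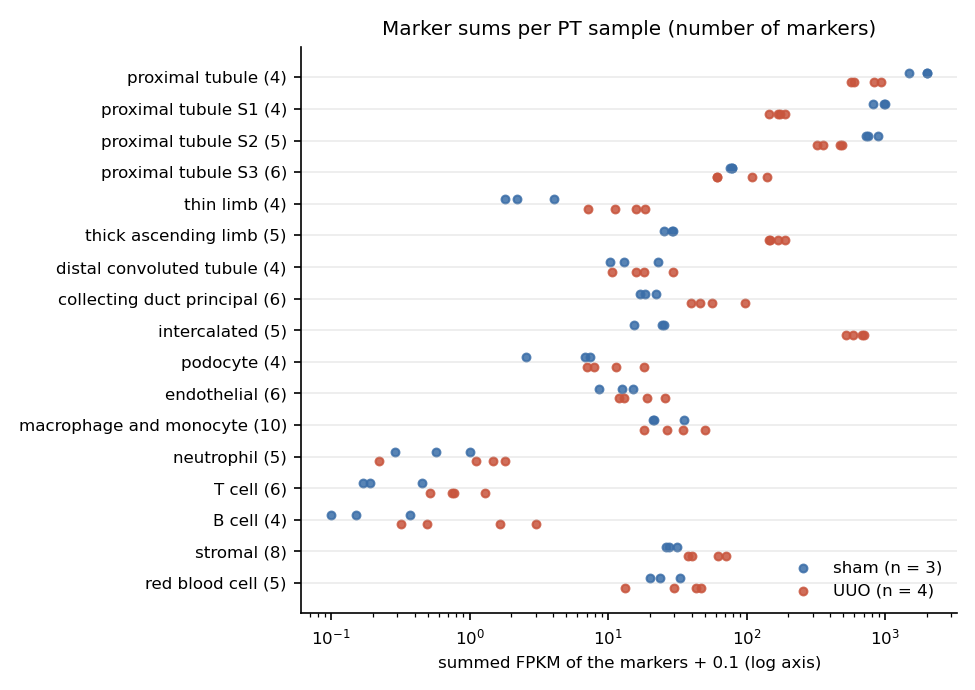
Summed FPKM of the markers of 17 cell types (rows, with the number of markers) in each sham sample (blue) and UUO sample (red), on a log axis after adding 0.1. The intercalated sums lie at 15.3 to 25.2 FPKM in sham and 522 to 699 FPKM in UUO, the S1 sums lie below sham in every UUO sample, and macrophage, endothelial and distal convoluted tubule sums overlap.

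Across the table, 3747 of 11416 genes (32.8%) changed between UUO and sham as deposited, of which 3186 (27.9%) rose and 561 (4.91%) fell. Rescaled without the mitochondrial genes, 2026 rose (17.8%) and 862 fell (7.56%) of 11401. After quantile normalization 1283 rose (11.2%) and 1196 fell (10.5%). A further rescaling to the nuclear protein-coding genes gave 3018 changed genes (26.4%), 2179 higher (19.1%) and 839 lower (7.35%). Under all 3 scalings 1265 rose (11.1%) and 546 fell (4.79%), so that most of the rises but few of the falls counted as deposited were lost under another scaling. The number of falls itself went from 561 to 862 and 1196. Both other scalings lowered the median change of all genes, so holding under all 3 was a weaker check on falls than on rises. No gene called both as deposited and under another of these scalings had opposite directions there. Without UUO sample 2, 3409 genes changed, of which 2960 rose and 449 fell.

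Groups did not overlap in 3475 of the genes called (30.4% of those tested). The rankings below took such genes with at least 5 FPKM in the higher group and left out Gm and Rik names. The 12 largest such rises were Havcr1, Lcn2, Clu, Spink8, Guca2a, Wfdc2, Atp6v1g3, Plet1, Atp6v0d2, Cd24a, Foxi1 and Slc26a4, with log2 changes of 5.03 to 6.92. They hold injury proteins and intercalated cell markers side by side. Lcn2, the secreted iron-siderophore binder NGAL, had 1.39, 0.51 and 0.26 FPKM in sham and 268, 129, 339 and 109 FPKM in UUO (log2 change 6.84 ± 0.40, adjusted p = 2.65e-08). Clu, the extracellular chaperone clusterin, had 6.5, 7.39 and 3.85 FPKM in sham and 433, 396, 509 and 345.5 FPKM in UUO (log2 change 5.96 ± 0.22, adjusted p = 1.1e-09). Guca2a, the peptide guanylin, had 0.24 to 1.28 FPKM in sham and 51.2 to 113 FPKM in UUO. The 12 largest falls were Cyp2d12, Slc6a19, Cyp2d26, G6pc, Slc2a5, Dnase1, Slc22a8, Sectm1b, Gldc, Clec2h, Hsd3b2 and Nepn, with log2 changes of -3.25 to -2.63. Cyp2d12, a cytochrome P450, had 27.2, 23.3 and 23.2 FPKM in sham and 1.22, 2.95, 1.48 and 1.36 FPKM in UUO, a 14.03-fold lower mean. All 24 held under the 3 scalings.

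**Figure D3:**
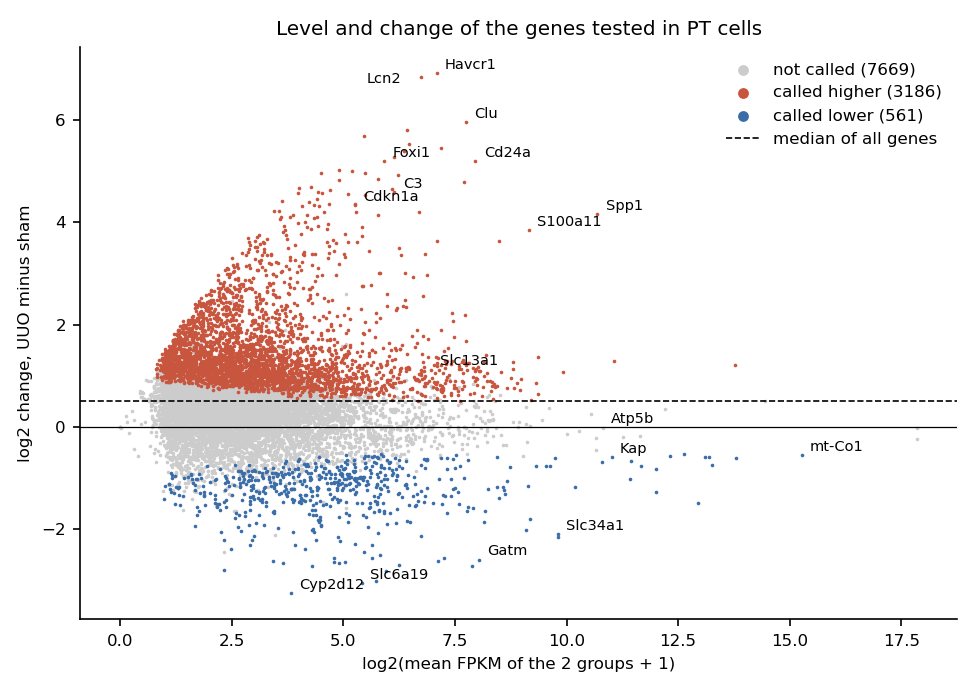
Log2 change (y axis, UUO minus sham) against log2(mean FPKM of the 2 groups + 1) for the 11416 genes tested, with 3186 called higher in red, 561 called lower in blue and the median of all genes, 0.51, as a dashed line. Havcr1 and Lcn2 lie at the top, Spp1 is high in both level and change, and Cyp2d12, Slc6a19 and Gatm lie at the bottom.

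Solute transporter genes fell broadly. Of 53 transporter genes tested, 32 fell and 4 rose as deposited, against 4.91% lower and 27.9% higher over all genes, and 32 fell and 3 rose under all 3 scalings. The median log2 change was -0.99, and the summed FPKM of the list was 5572 to 7040 in sham and 3066 to 3745 in UUO. Slc6a19, which takes up neutral amino acids at the brush border, had 80.7, 71.8 and 71.8 FPKM in sham and 10.2, 8.28, 8.49 and 5.84 FPKM in UUO (log2 change -3.06 ± 0.22, adjusted p = 2.09e-07). Of the 12 amino acid carriers 9 fell and none rose. The fructose carrier Slc2a5 fell from 32.3 ± 4.84 to 4.94 ± 3.95 FPKM. Slc22a8, the organic anion transporter OAT3, fell from 131 ± 19.0 to 19.5 ± 4.83 FPKM, as did 12 of the 20 organic anion and cation carriers tested. The exceptions rose. Slc2a1, the facilitated glucose carrier GLUT1, had 3.29, 2.89 and 3.85 FPKM in sham and 54.2, 45.4, 57.1 and 48.2 FPKM in UUO (log2 change 3.59 ± 0.20, adjusted p = 2.15e-08). Slc13a1, the sodium-sulphate cotransporter, had 88.5, 64.3 and 80.0 FPKM in sham and 133, 146, 192 and 214 FPKM in UUO (log2 change 1.12 ± 0.22, adjusted p = 0.00163).

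Endocytic receptors fell and their adaptor Dab2 was not called. Of 18 genes of the endocytic apparatus 7 fell and 2 rose, and 7 fell and 1 rose under all 3 scalings. Lrpap1, the chaperone of megalin, fell from 114 ± 27.7 to 43.6 ± 9.57 FPKM (log2 change -1.37 ± 0.25, adjusted p = 0.00111). Amn, which carries cubilin to the membrane, had 14.5 to 31.3 FPKM in sham and 3.34 to 11.2 FPKM in UUO, but its call was lost without sham 1, sham 2 or UUO 2, with log2 changes of -1.68 to -1.07 over the samples left out. The adaptor Dab2 had 205 ± 13.8 FPKM in sham and 206 ± 12.8 FPKM in UUO. Clcn5, the endosomal chloride-proton exchanger, rose from 14.2 ± 1.12 to 29.9 ± 4.64 FPKM (log2 change 1.01 ± 0.20, adjusted p = 0.00195). Without sham 1 the falls numbered 4, and without UUO 2 they numbered 5.

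Genes of gluconeogenesis and most of those listed for amino acid and creatine metabolism fell. All 8 gluconeogenesis and fructolysis genes tested fell under all 3 scalings, with a median log2 change of -1.34. G6pc, which releases free glucose, had 97.7, 118 and 107 FPKM in sham and 11.2, 8.32, 24.5 and 17.7 FPKM in UUO (log2 change -2.82 ± 0.29, adjusted p = 5.75e-06). Pck1, the first committed step, had 255, 274 and 122 FPKM in sham and 40.6, 56.0, 119 and 94.0 FPKM in UUO, so that sham 4 lay close to UUO 3. Of 30 genes tested in the amino acid and creatine list 21 fell and 3 rose under all 3 scalings. The summed FPKM of the list was 3521 to 4722 in sham and 1118 to 1281 in UUO. These counts and sums include Dnase1 and Miox, which are not genes of amino acid or creatine metabolism. Dnase1 alone fell from 408 ± 42.4 to 62.4 ± 16.4 FPKM. Gatm, which makes the creatine precursor guanidinoacetate, fell from 448 ± 42.6 to 73.6 ± 12.1 FPKM (log2 change -2.60 ± 0.18, adjusted p = 1.94e-07). Ass1, the argininosuccinate synthase of arginine synthesis, had 1599, 1626 and 1168 FPKM in sham and 370.5, 271, 285 and 380.3 FPKM in UUO (log2 change -2.16 ± 0.18, adjusted p = 8.22e-07). Among the 3 that rose were Arg2, an arginase that degrades arginine, from 0.0733 ± 0.0751 to 4.37 ± 1.70 FPKM, and Bcat1, which transaminates branched-chain amino acids, from 0.137 ± 0.114 to 3.69 ± 2.28 FPKM.

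Glycolysis genes changed by isoform rather than as a whole pathway. Of 16 genes 7 rose and none fell as deposited (the count of falls was 1, Gapdh, without the mitochondrial genes), and 5 rose under all 3 scalings. Pkm, a pyruvate kinase of non-gluconeogenic tissues, had 1.81, 5.01 and 2.74 FPKM in sham and 54.0, 42.9, 52.9 and 34.4 FPKM in UUO (log2 change 3.54 ± 0.27, adjusted p = 3.8e-07). Hk1, a hexokinase, rose from 0.873 ± 0.438 to 15.1 ± 1.82 FPKM and Pfkp, a phosphofructokinase, from 1.59 ± 0.321 to 15.9 ± 4.70 FPKM. Of the 2 most abundant members, Ldhb, a lactate dehydrogenase subunit, rose under all 3 scalings, from 639.5 ± 187 to 1308 ± 196 FPKM (log2 change 1.06 ± 0.22, adjusted p = 0.00238), and Gapdh had 1276 ± 321 FPKM in sham and 1187 ± 184 FPKM in UUO.

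Fatty acid oxidation genes fell in part. Of 47 genes 11 fell and 1 rose as deposited, 11 fell and none rose under all 3 scalings, and the median log2 change was -0.32 as deposited and -0.67 after quantile normalization. Acsm2, a medium-chain acyl-CoA synthetase, had 905, 1016 and 771 FPKM in sham and 255, 199, 234.5 and 346 FPKM in UUO (log2 change -1.81 ± 0.19, adjusted p = 7e-06). Pecr, a peroxisomal reductase, fell from 139.5 ± 34.0 to 38.2 ± 10.2 FPKM, and Ppara, the nuclear receptor that drives the pathway, from 8.44 ± 0.834 to 2.70 ± 1.42 FPKM (log2 change -1.43 ± 0.36, adjusted p = 0.00812). The fatty acid carrier Slc27a2 had 338 ± 24.3 and 310.3 ± 99.6 FPKM, with overlapping groups.

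Changes of respiratory chain genes depended on the scaling. Of the 13 protein-coding mitochondrial genes 11 fell as deposited, 7 of them without sham 1, and their summed FPKM was 123022 to 128594 in sham and 67386 to 95636 in UUO. After quantile normalization 4 fell. mt-Nd2, a complex I subunit, fell in both settings, from 3613 ± 205 to 1836 ± 500.4 FPKM (log2 change as deposited -1.02 ± 0.19, adjusted p = 0.00135), whereas mt-Co1, a complex IV subunit, fell from 46764 ± 1638 to 31996 ± 4220 FPKM as deposited and was not called after quantile normalization. Of the 76 nuclear-encoded subunits 4 fell and 1 rose as deposited, against 4.91% lower and 27.9% higher over all genes. Without the mitochondrial genes 25 fell and after quantile normalization 19 fell, with 4 falling under all 3. Those 4 were Ndufs1, Ndufc2, Sdhc and Uqcrc1, of which Ndufc2 was named after its values were seen. Ndufs1, of complex I, fell from 39.7 ± 4.30 to 22.1 ± 2.69 FPKM and Sdhc, of complex II, from 94.4 ± 13.2 to 55.6 ± 9.64 FPKM. Uqcrc1, of complex III, lost its call without sham 1, sham 2 or UUO 1 (log2 changes of -0.99 to -0.63 over the samples left out), and the count of nuclear falls was 2 without any of these and 7 without sham 4. Atp5b, of the ATP synthase, had 1798 ± 146 and 1784 ± 180.5 FPKM.

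Of 44 drug and steroid metabolism genes tested 21 fell and 3 rose as deposited, and 20 fell and 2 rose under all 3 scalings. Nat8f1, an acetyltransferase, had 104, 92.5 and 55.8 FPKM in sham and 20.1, 10.9, 14.01 and 8.88 FPKM in UUO (log2 change -2.57 ± 0.31, adjusted p = 2.78e-05). Gsta2, a glutathione transferase, fell from 549.6 ± 75.5 to 265 ± 34.5 FPKM, whereas the epoxide hydrolase Ephx1 rose from 4.34 ± 3.43 to 14.4 ± 4.03 FPKM and Gstm1, another glutathione transferase, from 80.4 ± 11.8 to 193 ± 77.1 FPKM. The number of rises was 5 without UUO 1 or UUO 2. Falls numbered 15 to 20 with 1 sample left out, and 16 without UUO 2. Kap, the androgen-regulated kidney protein and the most abundant gene of the list, had 2694, 2193 and 2507 FPKM in sham and 1323, 1323, 2051 and 1928 FPKM in UUO. Its fall was not called after quantile normalization or without sham 1, sham 4, UUO 1 or UUO 2 (log2 changes of -0.71 to -0.50).

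Among the transcription factors of PT cells 5 of 14 fell and 2 rose, under all 3 scalings alike, with a list median of 0.01 as deposited, -0.27 without the mitochondrial genes and -0.41 after quantile normalization. Maf fell from 23.6 ± 3.79 to 8.29 ± 2.40 FPKM and Nr1h4, the bile acid receptor FXR, from 34.7 ± 3.05 to 16.3 ± 5.32 FPKM. Hnf4a, a nuclear receptor required for PT differentiation, had 78.3, 71.9 and 59.1 FPKM in sham and 30.4, 36.8, 55.1 and 45.6 FPKM in UUO. Its call (log2 change -0.74 ± 0.22, adjusted p = 0.0195) was lost without sham 1, sham 2 or UUO 1, with log2 changes of -0.88 to -0.60 over the samples left out, and 3 factors fell without any 1 of these. Among the 2 that rose was Tfcp2l1, known from the collecting duct, from 16.7 ± 2.03 to 107 ± 9.07 FPKM. The intercalated marker sum beside Tfcp2l1 was 15.3 to 25.2 FPKM in sham and 522 to 699 FPKM in UUO.

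Of the factors listed under nephron development, 10 of 14 tested rose as deposited and 7 under all 3 scalings, and none fell. Sox9, which marks tubule cells in repair, had 0.05, 0.09 and 0.05 FPKM in sham and 3.43, 1.75, 3.12 and 2.63 FPKM in UUO (log2 change 1.79 ± 0.30, adjusted p = 0.000481). Klf6 rose from 2.84 ± 0.148 to 24.9 ± 6.85 FPKM, Klf4 from 0.567 ± 0.202 to 5.61 ± 2.01 FPKM and Pax8, a nephron-wide factor, from 12.7 ± 2.94 to 40.9 ± 10.04 FPKM. Id2 had 29.3 ± 6.62 and 31.6 ± 6.02 FPKM.

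**Figure D4:**
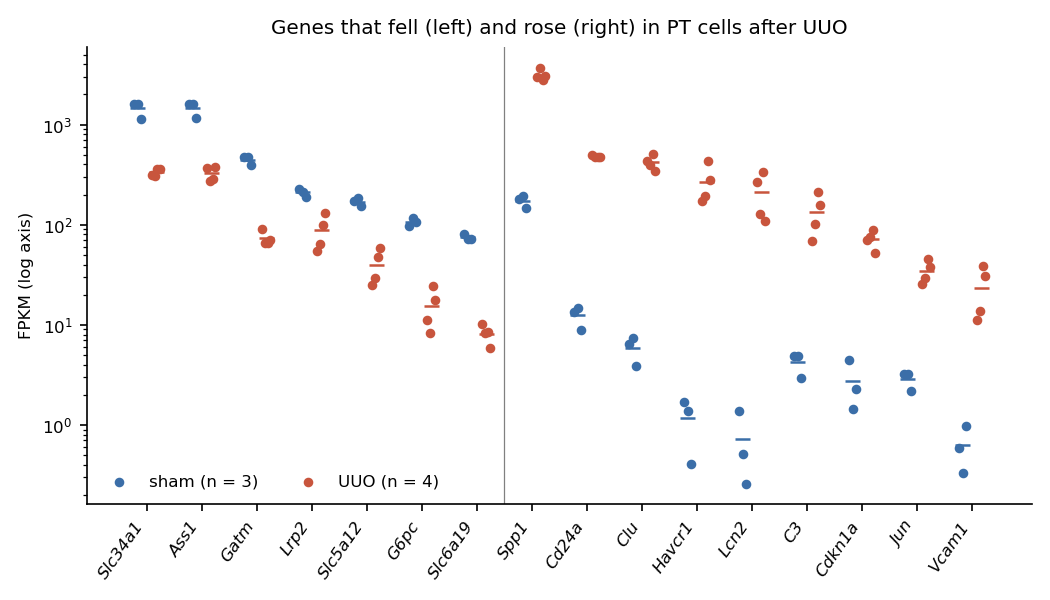
FPKM (log axis) of 16 genes in each sham sample (blue, n = 3) and UUO sample (red, n = 4), with the group mean as a bar. The 7 genes on the left, from Slc34a1 to Slc6a19, are lower in every UUO sample than in any sham sample, and the 9 on the right, from Spp1 to Vcam1, are higher in every UUO sample.

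Tubular injury genes had the largest median of the 26 lists under each scaling, 2.95 as deposited, 3.08 without the mitochondrial genes and 2.52 after quantile normalization. Of 38 tested 33 rose and none fell as deposited, 3 fell under each of the other scalings, and 30 rose under all 3. Their summed FPKM went from a mean of 1365 in sham to 7673 in UUO. Spp1, the secreted phosphoprotein osteopontin, had the highest level, at 179, 195 and 147 FPKM in sham and 2967, 3697, 2766 and 3065 FPKM in UUO (log2 change 4.16 ± 0.17, adjusted p = 1.56e-09). Cd24a, a surface glycoprotein of progenitor-like and distal tubule cells, had 8.93 to 14.9 FPKM in sham and 475 to 501 FPKM in UUO. S100a11, a calcium-binding protein, rose from 73.2 ± 10.2 to 1064 ± 108 FPKM (log2 change 3.85 ± 0.16, adjusted p = 1.56e-09). Wfdc2, a secreted protease inhibitor homologue that is also made by distal tubule cells, rose from 2.94 ± 1.82 to 172.5 ± 55.8 FPKM. Vcam1, an adhesion molecule of injured PT cells, had 0.59, 0.33 and 0.97 FPKM in sham and 11.3, 13.7, 38.3 and 30.4 FPKM in UUO (log2 change 3.75 ± 0.37, adjusted p = 4.23e-06). Umod and Cldn16 of the thick ascending limb and the intercalated markers rose in the same samples, as given above.

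The immediate early genes, whose products include the AP-1 factors, rose in 15 of 17 genes tested as deposited and in 12 under all 3 scalings, and none fell. Jun had 3.26, 3.21 and 2.20 FPKM in sham and 25.9, 29.4, 45.0 and 37.7 FPKM in UUO (log2 change 3.17 ± 0.24, adjusted p = 4.12e-07). Egr1, a zinc finger factor, rose from 5.46 ± 1.70 to 49.6 ± 11.1 FPKM and Ier3, an NF-kB-responsive survival gene, from 0.947 ± 0.684 to 23.5 ± 6.15 FPKM. Zfp36, which destabilizes cytokine mRNA, rose from 13.9 ± 3.86 to 53.1 ± 6.84 FPKM.

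AP-1 factors bind the sequence TGANTCA, and RefSeq promoters (GRCm38.p6, a fixed window around each gene's start) were searched for exact matches on both strands. Of 8566 tested genes with a promoter there, 531 (6.2%) held a match, as did 84 of 956 genes higher under all 3 scalings (8.79%) and 27 of 420 lower (6.43%). Among the lists 7 of 31 tubular injury genes held a match (22.6%), 5 of 33 drug and steroid genes (15.2%), 3 of 25 amino acid and creatine genes (12%) and none of the 14 immediate early genes themselves. The 7 were Anxa2, Fgb, Havcr1, Mmp7, Plaur, Prom1 and S100a11, of which Prom1 did not rise. The matches of Havcr1, S100a11, Cldn4, Guca2a and Plet1, which rose, of Clec2h, which fell, and of Cox7c, which was not called as deposited, are shown with the motif in capitals (1 of 2 matches each for Cldn4 and Clec2h, both for S100a11), 5′ to 3′ on the strand of the gene, to let the sites be compared.
Havcr1, chr11:46751167-46751196, plus strand: ggtcagtaccaTGAATCAgattcaagtctt
S100a11, chr3:93520349-93520378, plus strand: cagagacctgtTGAGTCAcagggactacaa
S100a11, chr3:93520447-93520476, plus strand: cgggcacagccTGAGTCAggctgaggggcg
Cldn4, chr5:134947155-134947184, minus strand: tctaggctggTGACTCAgtgtctgtgtccc
Guca2a, chr4:119637521-119637550, plus strand: cagcccagctgTGAGTCAcagtagtgccca
Plet1, chr9:50494370-50494399, plus strand: tggaggctgggTGATTCAtccaggtaatgt
Clec2h, chr6:128662401-128662430, plus strand: ctgaattcagtTGAGTCAtagttcttcctc
Cox7c, chr13:86046955-86046984, minus strand: tcaggtcccatTGAATCActaaaggtaagt
The same core letters stood near genes that rose, fell or were not called. A match is a description of letters and not of binding. The Havcr1 match began 10 bases after the RefSeq start. By the coordinates deposited with the FPKM, however, Havcr1 spans chr11:46735080-46779578, so this match lay within the gene and not at its start. For the HNF4 motif CAAAGTCCA the shares were 0.514% of all 8566, 1.43% of those lower (6 genes) and 0.314% of those higher (3 genes), and the HNF1 motif was found in 6 of the 8566.

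Inflammatory genes rose in 32 of 40 tested as deposited and in 21 under all 3 scalings, and none fell as deposited. Ccl2, which attracts monocytes, had 0.21, 0.30 and 0.23 FPKM in sham and 3.37, 3.73, 6.8 and 7.37 FPKM in UUO (log2 change 2.28 ± 0.32, adjusted p = 0.000106). Cxcl17, a mucosal chemokine, rose from 0.143 ± 0.136 to 21.3 ± 8.07 FPKM, Il34, a ligand of the macrophage growth factor receptor CSF1R, from 0.773 ± 0.585 to 16.6 ± 3.04 FPKM and Tnfrsf12a, the receptor of the cytokine TWEAK, from 0.810 ± 0.354 to 12.9 ± 4.43 FPKM. Macrophage markers in the same samples overlapped between the groups. Of 19 complement and MHC class I genes 16 rose as deposited and 10 under all 3 scalings. C3, the central complement component, had 4.92, 4.89 and 2.96 FPKM in sham and 69.3, 101.5, 210.3 and 159 FPKM in UUO (log2 change 4.59 ± 0.33, adjusted p = 2.01e-07). Cfi, a complement inhibitor, rose from 2.23 ± 1.07 to 21.1 ± 3.73 FPKM, and H2-K1, a class I heavy chain, from 62.5 ± 24.6 to 227 ± 61.7 FPKM.

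Interferon-stimulated genes rose in 17 of 24 as deposited but in 7 under all 3 scalings, and none fell. Rtp4 rose from 0.387 ± 0.0950 to 5.54 ± 2.18 FPKM and Ifitm3, which restricts viral entry, from 19.8 ± 5.63 to 85.1 ± 22.8 FPKM (log2 change 2.04 ± 0.24, adjusted p = 2.65e-05).

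Arrest and proliferation genes were counted as separate lists, whose difference was not tested. Their median log2 changes were 0.76 for the arrest list and 0.86 for the cell cycle list as deposited. Of 18 p53 and arrest genes 8 rose as deposited and 7 under all 3 scalings. Cdkn1a, the cyclin-dependent kinase inhibitor p21, had 4.49, 1.43 and 2.28 FPKM in sham and 69.8, 75.5, 89.5 and 51.8 FPKM in UUO (log2 change 4.34 ± 0.30, adjusted p = 1.45e-07). Gadd45a, a DNA damage response gene, rose from 2.503 ± 1.06 to 26.8 ± 3.23 FPKM and the antiproliferative gene Btg2 from 1.53 ± 0.546 to 16.7 ± 2.04 FPKM, while Ccng1, another p53 target, had 24.8 ± 3.97 and 32.4 ± 8.80 FPKM. Of 22 cell cycle genes tested 6 rose and 1 fell as deposited (3 rose without sham 4), shares near the 27.9% and 4.91% of all genes. None of them rose under all 3 scalings. The cyclin gene Ccnd1 had 33.5, 35.6 and 29.8 FPKM in sham and 9.81, 12.6, 25.3 and 20.7 FPKM in UUO, with a call that was lost without sham 1, sham 2 or UUO 1 (log2 changes of -1.20 to -0.77). Pcna, the sliding clamp of DNA replication, rose from 12.9 ± 4.20 to 27.2 ± 2.61 FPKM as deposited and was not called after quantile normalization.

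Among stress responses single members changed. Of 25 unfolded protein response genes 7 rose as deposited, a share near the 27.9% of all genes, and 1 fell. The rises numbered 3 without UUO 3, UUO 4 or sham 4, and 3 rose and 3 fell without the mitochondrial genes and after quantile normalization alike. Asns, the asparagine synthetase, had 0.05, 0.10 and 0.19 FPKM in sham and 11.1, 12.5, 8.29 and 2.97 FPKM in UUO (log2 change 2.98 ± 0.41, adjusted p = 0.000103), and Xbp1 rose from 17.6 ± 5.07 to 47.5 ± 5.43 FPKM. Of the chaperones, Hsp90b1 had 168 ± 50.2 and 227 ± 29.8 FPKM and Calr had 124 ± 45.2 and 113 ± 6.61 FPKM in sham and UUO, with overlapping groups. Of 22 genes of the NRF2 antioxidant response 3 rose and 2 fell under all 3 scalings, against 11.1% and 4.79% of all genes. Nfe2l2, which encodes NRF2, had 12.5, 13.4 and 11.1 FPKM in sham and 54.3, 55.1, 61.6 and 53.5 FPKM in UUO (log2 change 2.10 ± 0.19, adjusted p = 1.68e-06). Gclc, of glutathione synthesis, rose from 16.5 ± 2.61 to 37.9 ± 5.61 FPKM and G6pdx, of the pentose phosphate pathway, from 4.997 ± 0.641 to 20.6 ± 1.61 FPKM, whereas Me1, a malic enzyme, fell from 71.2 ± 3.91 to 39.2 ± 11.8 FPKM. Of 12 cell death genes 6 rose as deposited (3 without UUO 3 or sham 1) and 3 under all 3 scalings. Pycard, the inflammasome adaptor, rose from 1.97 ± 2.13 to 13.7 ± 3.76 FPKM and Acsl4, which loads membranes with polyunsaturated lipids, from 2.27 ± 0.563 to 8.78 ± 1.29 FPKM, while Bid, a pro-apoptotic BCL2 family member, fell from 13.4 ± 4.70 to 5.32 ± 1.29 FPKM.

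Adhesion and cytoskeletal genes rose in 34 of 47 as deposited and in 28 under all 3 scalings, and 3 fell under all 3. Tmsb10, which binds actin monomers, rose from 3.27 ± 1.84 to 49.1 ± 8.43 FPKM (log2 change 3.65 ± 0.31, adjusted p = 7.78e-07). The tight junction genes divided. Of the claudins of the distal nephron, Cldn4 rose from 0.0900 ± 0.108 to 19.6 ± 4.06 FPKM and Cldn7 from 2.36 ± 3.44 to 42.8 ± 9.06 FPKM. Of those of leaky segments, Cldn10 fell from 38.8 ± 0.529 to 17.3 ± 8.38 FPKM and Cldn2 from 139 ± 13.7 to 90.5 ± 21.1 FPKM, the call of Cldn2 being lost without sham 1, sham 2, UUO 1 or UUO 2 (log2 changes of -0.75 to -0.50). The third gene of the list that fell was Tln2, which encodes talin 2 and is named by the study as the host gene of the microRNA it follows. Tln2 had 11.2, 8.91 and 8.0 FPKM in sham and 3.67, 4.78, 6.23 and 4.29 FPKM in UUO. The groups stood apart, but its call (log2 change -0.86 ± 0.28, adjusted p = 0.0307) was lost without any 1 of the sham samples, UUO 1 or UUO 4, with log2 changes of -0.98 to -0.74. Without sham 1, sham 2 or UUO 1 the list had 1 fall. The cytoskeletal gene Actb, often taken as constant, had 218 ± 57.0 and 333 ± 85.6 FPKM. It was called as deposited only, and that call was lost without sham 1, sham 4, UUO 1, UUO 2 or UUO 3 (log2 changes of 0.41 to 0.79).

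Profibrotic signals and matrix genes rose in 20 of 35 as deposited and in 6 under all 3 scalings, and none fell as deposited. Edn1, the vasoconstrictor endothelin, had 0.13, 0.05 and 0.07 FPKM in sham and 4.73, 6.24, 5.38 and 7.83 FPKM in UUO (log2 change 2.68 ± 0.28, adjusted p = 7.84e-06). Cyr61, a matricellular protein, rose from 2.37 ± 1.53 to 36.6 ± 22.9 FPKM. Of the fibrillar collagens, Col1a1 had 4.08 ± 0.827 and 6.24 ± 2.85 FPKM and Col3a1 had 7.01 ± 1.71 and 12.8 ± 5.68 FPKM in sham and UUO and neither was called, Col3a1 only passing the test without UUO 4. Not called either was Adam10, a sheddase named by the study, at 3.37 to 5.32 and 5.13 to 14.2 FPKM. Vegfa, the vascular growth factor, had 21.6 ± 6.18 and 25.9 ± 12.2 FPKM.

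Ribosomal protein genes rose together. Of 46 tested 43 rose as deposited, 31 rose under all 3 scalings and none fell, with a median log2 change of 0.90. The summed FPKM was 5808, 5849 and 4019 in sham and 10382, 9406, 12413 and 7304 in UUO, without overlap. Rps9, for example, had 146, 140 and 103 FPKM in sham and 326, 274, 402 and 245 FPKM in UUO (log2 change 1.25 ± 0.21, adjusted p = 0.00045). Without sham 4, which had the lowest ribosomal sum, 25 of the 46 rose. Many ribosomal protein genes have processed pseudogenes of near-identical sequence, so that their FPKM are less certain than those of unique genes.

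The balance of lysosomal genes depended on the scaling. Of 21 tested 6 rose as deposited, against 27.9% of all genes, and 2 fell, whereas 3 rose and 8 fell both without the mitochondrial genes and after quantile normalization. Under all 3 scalings 3 rose and 2 fell. The protease Ctsd rose from 101 ± 19.2 to 325 ± 43.5 FPKM, whereas Lipa, the acid lipase, fell from 83.0 ± 7.53 to 26.6 ± 5.42 FPKM (log2 change -1.62 ± 0.20, adjusted p = 4.08e-05). The rises numbered 3 without UUO 1, UUO 3 or sham 4, and the falls 5 without UUO 3. Of 18 cholesterol synthesis genes 2 rose and 2 fell as deposited, 1 rose and 5 fell without the mitochondrial genes, and 1 rose and 7 fell after quantile normalization, with medians of 0.02, -0.25 and -0.54. Among them 1 rose, Fdft1, and 2 fell, Nsdhl among them, under all 3 scalings, and the falls as deposited numbered 4 without UUO 4.

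**Figure D5:**
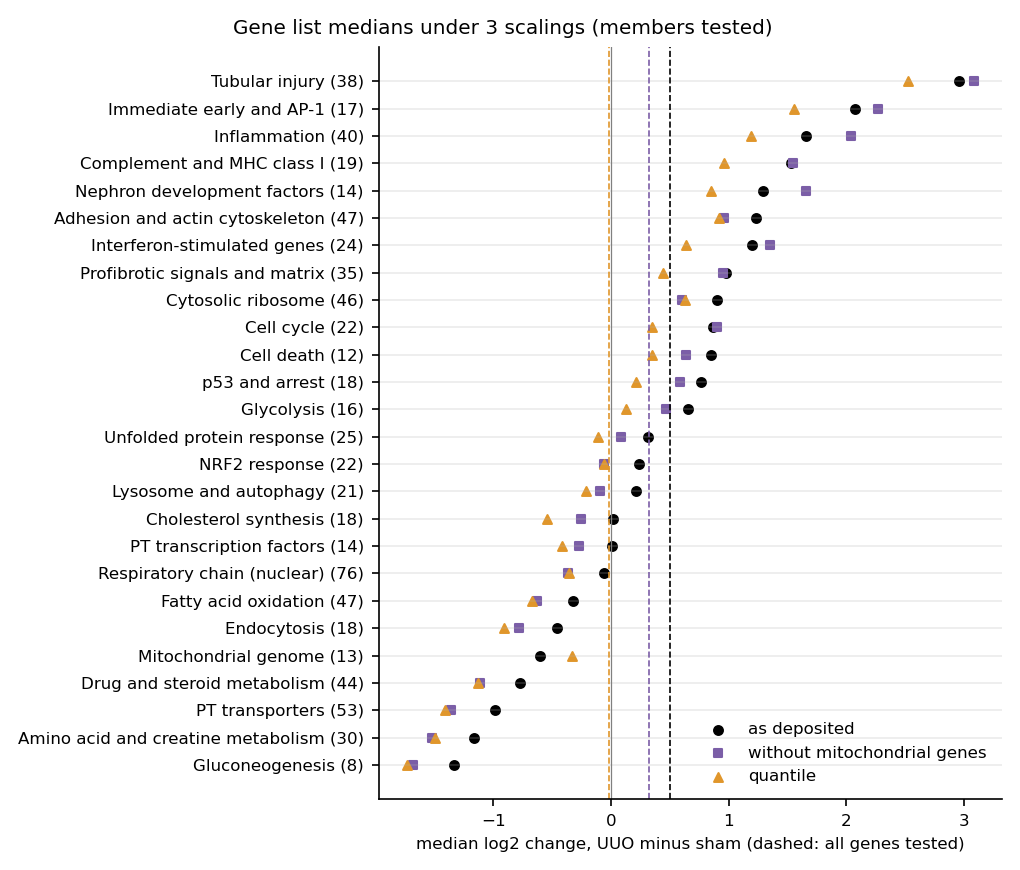
Median log2 change (x axis, UUO minus sham) of the members tested in each of 26 gene lists, as deposited (circles), without mitochondrial genes (squares) and after quantile normalization (triangles). Dashed lines mark the medians of all genes tested, 0.51, 0.32 and -0.02. Tubular injury lies farthest right and gluconeogenesis farthest left under each scaling, and the mitochondrial genome list has no square because its genes were removed.

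The PT change was then set against the mean change, UUO minus sham, of macrophages, endothelial cells and stromal cells, by a test of the difference itself. Of 11416 genes 3199 differed (28.0%), 2847 (24.9%) with a PT change above that of the other populations and 352 (3.08%) below it, and the numbers were 1450 (12.7%) and 1045 (9.15%) after quantile normalization. Injury genes rose more in PT cells. The PT change was above the mean of the others in 30 of 38 tubular injury genes, and the medians of their changes were 2.95 in PT cells, 0.50 in macrophages, 0.52 in endothelial cells and 0.31 in stromal cells. Havcr1 changed by 6.92 in PT cells and by 0.81 to 2.67 in the other populations (difference 5.21 ± 0.64, adjusted p = 3.13e-08), and Cdkn1a by 4.34 and by 0.64 to 0.80 (difference 3.598 ± 0.40, adjusted p = 3.95e-09). Nfe2l2 changed by 2.10 and by 0.25 to 0.33 (difference 1.82 ± 0.17, adjusted p = 1.24e-10). Adhesion and cytoskeletal genes had a higher PT change in 33 of 47.

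Other lists had medians of the same sign in all 4 populations. The immediate early genes had medians of 2.07 in PT cells and of 1.03, 1.08 and 1.63 in macrophages, endothelial cells and stromal cells, and 7 of 17 differed. Gluconeogenesis genes had a median of -1.34 in PT cells and of -1.57, -1.24 and -1.10 in the others, where 2 of 8 differed as deposited and 5 of 8 after quantile normalization, 1 above and 4 below. Lrp2 changed by -1.33 in PT cells and by -1.20, -0.995 and -1.76 in the others (difference -0.01 ± 0.40, adjusted p = 0.984). The summed PT markers in the macrophage, endothelial and stromal sorts had medians of 77.5, 43.1 and 29.9 FPKM in sham. After UUO they were 18.4, 25.9 and 9.41 FPKM. The part of PT transcripts in the changes of those sorts was not tested. Cell cycle genes had medians of 0.86, 0.70, 0.80 and 1.07, and 4 of 22 differed, 2 in each direction.

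The 5 largest differences upwards were Spink8, Gm11695, Defb1, Slc14a2 and Tmem213. Defb1, a beta-defensin of the distal nephron, had 14.5, 11.3 and 14.3 FPKM in PT sham and 535, 428.5, 332 and 316 FPKM in PT UUO. It changed by 4.78 in PT cells and by -1.17, -1.26 and -3.69 in macrophages, endothelial cells and stromal cells (difference 6.82 ± 0.51, adjusted p = 2.17e-13). Slc14a2, the urea transporter of the collecting duct and thin limb, changed by 4.32 in PT cells and by -4.27 to -0.46 in the others (difference 6.57 ± 0.56, adjusted p = 6.71e-12). Both are genes of tubule segments outside the proximal tubule, whose markers were lower after UUO in the stromal sort. There the median sums in sham and UUO were 380.1 and 37.9 FPKM for the thick ascending limb, 184.5 and 8.74 FPKM for collecting duct principal cells and 39.6 and 4.41 FPKM for intercalated cells. In the endothelial sort the thick ascending limb sum had medians of 285.7 and 62.6 FPKM and the intercalated sum 19.9 and 16.3 FPKM, and in macrophages the intercalated sum had 7.22 and 13.6 FPKM. The part of these markers in the differences was not tested. The 5 largest differences downwards were Cyp2d12, Gm42429, Cotl1, Nepn and Halr1. Cotl1, an actin-binding protein, changed by -1.29 in PT cells and by 0.69, 1.65 and 2.49 in the others (difference -2.90 ± 0.47, adjusted p = 6.78e-06), and its PT call was lost without sham 1 or sham 2 (log2 changes of -1.77 to -0.97).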

How the data were processed

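RNA from FACS-sorted LTL+ cells was sequenced by the authors, whose submitted processing notes name FastQC, Bowtie2, RSEM and DESeq2 without versions and the mouse build GRCm38 (mm10). The deposited table holds FPKM per gene, rounded by the authors to 2 decimals, for 53465 genes. It gives no counts, so depth is unknown and no count test was run, and 2 columns that share 1 name were not used. Genes whose mean FPKM reached 1 over the PT samples were tested on log2(FPKM + 1), with a pseudocount of 1, by limma 3.58.1 (R 4.3.3) with an intensity trend and Benjamini-Hochberg adjustment over all genes tested. PT sham, UUO and rUUO samples shared the estimate of spread. The mouse age is from the study's methods. The PT change minus the mean change of the other populations was a contrast across all sorts. On simulated data for UUO against sham, 36 of 100 genes set to a log2 change of 1 and 81 of 100 set to 2 were called, with 4 calls among the unchanged genes. The set genes were drawn above a floor of expression, with normal noise, and no others changed. In the data 3747 genes were called, so these shares are not the sensitivity of the comparison itself. Single values were compared by exact permutation in Python 3.11.15 with scipy 1.17.1. The labels do not say that samples of a group came from separate animals, so p-values measure the spread between these samples.

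Genes named were the PT markers, the 12 largest rises and falls with groups that did not overlap and at least 5 FPKM in the higher group, up to 3 called members per direction and the 2 most abundant members of each of 26 lists, genes the study names, and the 5 largest contrasts in each direction. Gm and Rik names were left out of those 12 rises and falls, but not of the contrasts. Members of the 17 marker lists are named as well, and the injury genes with a promoter match and Ndufc2 were named after their values were seen. The members and lists were chosen with earlier results of these data known. Some genes that the rule names are not reported here.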

Additional observations from a re-analysis of the deposited data

Results flagged for a closer look

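Among the 4 UUO samples, 188 values (FPKM of named genes, list and marker sums, and sample measures) were searched for a sample that stood apart by Dixon's 95% criterion, which chance meets in about 1 of 20 groups. In 11 a sample did. UUO 3 was the highest for Actb at 460.5 FPKM against at most 299 in the others. It was also the highest in the summed FPKM of the inflammation list (463.5), the immediate early and AP-1 list (402.1), the NRF2 list (5682) and the lysosome and autophagy list (2241). UUO 1 was the highest for Cd24a at 501.4 FPKM, Pcna at 31.1 FPKM and Slc22a8 at 26.7 FPKM. UUO 2, the sample with the mixed title, was the highest for Cyp2d12 at 2.95 FPKM and the lowest for Fbp1 at 78.2 FPKM and for the summed amino acid and creatine list at 1118 FPKM.

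The change in PT cells differed from the mean change of the other populations in 3199 genes by the test of the difference. On the log2 scale the difference was 5.21 for Havcr1, 3.598 for Cdkn1a and 1.82 for Nfe2l2. It was 7.34 for Spink8, 6.84 for Gm11695, 6.82 for Defb1, 6.57 for Slc14a2 and 6.38 for Tmem213. In the other direction it was -2.95 for Cyp2d12, -2.93 for Gm42429, which was listed at 0 in every PT UUO sample, -2.90 for Cotl1, -2.65 for Nepn and -2.46 for Halr1.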

How the results depend on the processing

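Of 3747 genes called between UUO and sham, quantile normalization left 2479 (1283 higher and 1196 lower, against 3186 and 561 as deposited), and 1833 genes were called in both. Leaving out 1 sample gave 2549 (without sham 4) to 3409 genes (without UUO 2), and the other settings 2719 (no filter on low values) to 3921 (rescaled to TPM). No gene called in 1 of these settings and as deposited had opposite directions there, whereas the median log2 change of all genes went from 0.51 as deposited to -0.02 after quantile normalization. Rescaling to the nuclear protein-coding genes, added after seeing the data, gave 3018. With the replicate number as a block 3311 were called. The deviations of same-numbered samples correlated at 0.0395, 0.0064 and 0.0697. Sham 1 and sham 4 correlated best with the UUO sample of the same number, and sham 2 with UUO 1 (0.00943). Correlations this small cannot decide whether same-numbered samples were paired or shared a batch. For the difference between PT cells and other populations the count was 2475 to 2989 with 1 PT sample left out, 2495 to 3530 in the other settings, 3336 with surgery and replicate number as a replicate block, which no label ties to a mouse across sorts, and 3246 without 2 outlying libraries of other populations, a setting added after seeing the data. With 1 sample left out, the mitochondrial share was lower in UUO by -9.175 to -5.83 percentage points and the number of genes at 1 FPKM or more was higher by 1865.3 to 2125.3, and such a design cannot reach a p under 0.05. FPKM without counts limit what can be said of genes near 1 FPKM.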
